A study of Rattus norvegicus with 22 samples.

Results

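Atf3, Sprr1a and Csrp3 are genes that neurons switch on after their axons are cut, and they were followed here in rat cortex 24 h after a penetrating brain injury. They are 3 of the 32545 gene identifiers in the count table, taken by symbol as Atf3 (ENSRNOG00000003745), Sprr1a (ENSRNOG00000024028) and Csrp3 (ENSRNOG00000014327). RNA was sequenced from 22 cortex samples of 11 adult male Sprague-Dawley rats, 1 sample from each hemisphere. PBBI, penetrating ballistic brain injury, was given to 6 rats by a probe in the right frontal cortex (rats 81, 83, 85, 88, 90 and 96), and 5 sham rats (82, 84, 86, 91 and 94) had the same surgery without the probe. Sham and PBBI rats alike carried implanted electrodes for recording brain and muscle activity, so that the sham cortex is operated cortex rather than intact cortex. Ipsilateral means the injured right side, or the same side in sham rats, and contralateral the other side. The titles of both samples of rat 81 and of the contralateral sample of rat 82 carry the letters PFC, and the other titles do not. Whether the cortical region differed between samples was not tested.

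As background, a cut axon sends injury signals back to the cell body, which answers with a set of transcripts known as regeneration-associated genes. ATF3 is a stress-induced transcription factor of the basic leucine zipper class that is a standard marker of axotomized neurons and is also induced in other stressed cells, immune cells included. SPRR1A is a small proline-rich protein of the cornified envelope of skin that is induced in injured sensory and motor neurons and promotes neurite outgrowth. CSRP3, also called muscle LIM protein, is best known at the Z-disc of heart and skeletal muscle and is also induced in some axotomized neurons. In bulk tissue, a change in the number of cells of a type and a change in RNA per cell cannot be told apart.

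The promoter of Sprr1a is printed because Atf3 encodes a factor that can pair with Jun, and the window shows the AP-1 words (TGANTCA) such pairs are known for. RefSeq (GRCr8, chr2:180752576-180752875, minus strand) gives 250 bases before and 50 after the start of transcription, written 5′ to 3′ along the gene. The AP-1 words and the CRE-like word TGACATCA are in capitals.

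Sprr1a promoter: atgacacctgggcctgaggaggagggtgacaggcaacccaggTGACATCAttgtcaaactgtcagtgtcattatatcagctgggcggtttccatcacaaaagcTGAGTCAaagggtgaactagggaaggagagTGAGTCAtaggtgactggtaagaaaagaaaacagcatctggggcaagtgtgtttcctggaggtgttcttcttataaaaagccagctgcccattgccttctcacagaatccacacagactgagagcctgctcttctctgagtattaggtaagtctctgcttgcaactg

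The window holds 2 copies of TGAGTCA, at -147 to -141 and -117 to -111, one TGACATCA at -208 to -201 and a TATAAA at -46 to -41. Searched on both strands of 33469 promoters of this length, TGANTCA was found at least once in 7.33% and at least 2 times in 0.415%, TGACATCA in 4.34% and TATAAA in 14.2%. The full CRE word TGACGTCA, present in 1.83% of promoters, was not in this window. A match is a run of letters and not a measured binding site.

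Libraries held 42085341 to 63412426 counts. The ipsilateral library of PBBI rat 85 stood apart: its mean correlation with the other libraries of its group was 0.824 against 0.928 to 0.940 for the other 5 PBBI rats, it lay at 199.9 on a first component that held 49.8% of the variance, and its TMM factor was 0.706. Values are therefore given by rat, and those that rest on rat 85 also without it. Levels are in CPM, counts scaled to a common library size after TMM normalization, and a gene is said to rise or fall where edgeR's quasi-likelihood test passed a threshold of 0.05 after Benjamini-Hochberg adjustment over the whole table of genes tested. PBBI and sham are separate rats, and the 2 hemispheres are samples of the same rat.

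On the injured side, Sprr1a and Csrp3 rose and separated fully from sham, whereas Atf3 had a higher mean in PBBI that did not pass the test. With edgeR, 2 of the 3 genes were called, where 4.68% of 16104 genes were called in either direction and 4.09% as higher. No PBBI rat overlapped the sham rats for these 2 genes, and 3.5% of the genes tested were likewise higher in each of the 6. The plot of levels in every sample shows how the rats spread.

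**Figure D1:**
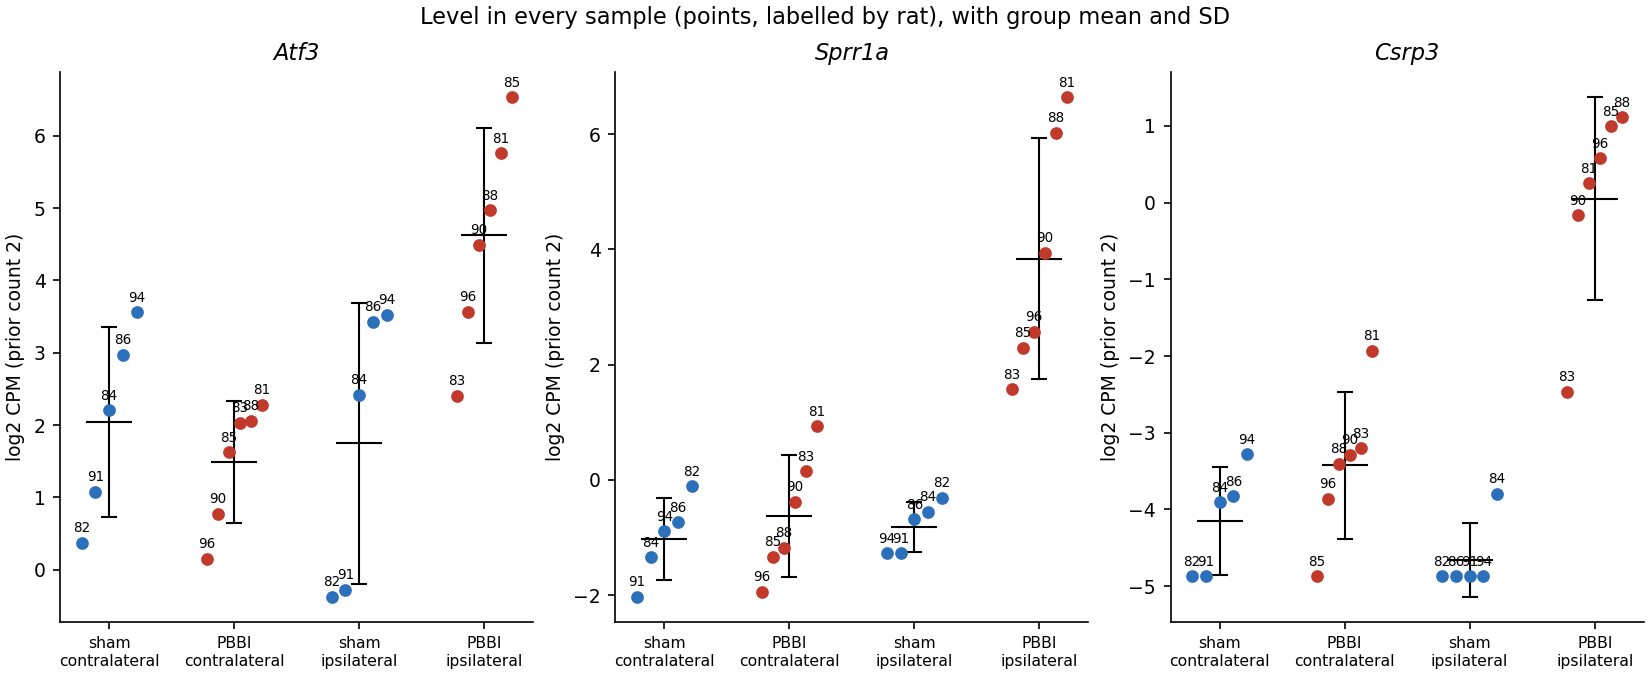
Log2 CPM (prior count 2) of Atf3, Sprr1a and Csrp3 in each of the 22 samples, by treatment and hemisphere. Points are samples labelled by rat, horizontal lines are group means and bars are SD, with 6 PBBI and 5 sham rats. Ipsilateral PBBI samples lie above every sham sample for Sprr1a and Csrp3, and for Atf3 PBBI rat 83 lies within the sham range.

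Atf3 counts in the ipsilateral cortex were 3455, 358, 4095, 2180, 1568 and 874 in PBBI rats 81, 83, 85, 88, 90 and 96. In CPM these were 54.1, 5.26, 92.5, 31.3, 22.4 and 11.8. Sham rats 82, 84, 86, 91 and 94 had 0.737, 5.32, 10.7, 0.792 and 11.5 CPM, from 40, 280, 402, 50 and 698 counts. The sham rats thus fell into 2 with low Atf3 and 3 with a level several times higher, and PBBI rat 96 was only just above the highest of them while PBBI rat 83 was below 3 sham rats. Mean Atf3 was 36.2 ± 32.4 CPM (SD, n = 6) against 5.82 ± 5.19 CPM (SD, n = 5). The log2 fold change was 2.64 (SE 0.875, edgeR adjusted p = 0.119), with 5 of 6 PBBI rats above every sham rat.

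That call depended on the tool: DESeq2 gave 2.66 (adjusted p = 0.0108), limma voom with quality weights 2.48 (adjusted p = 0.0146) and the edgeR fit of all 22 samples 2.64 (adjusted p = 0.0346). These fits also called more genes. DESeq2 called 1639 and voom 5014 of 16104 genes, and the fit of all 22 samples 1655 of 16587. The edgeR fit of the ipsilateral samples called 753 of 16104. A two-sided exact permutation test of mean log2 CPM over the 462 splits of the 11 rats gave a difference of 2.88 and p = 0.0195. Without rat 85 the log2 fold change was 2.08 (edgeR adjusted p = 0.0918).

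The spread of Atf3 among sham rats was shared by both sides of the brain. Contralateral sham levels were 1.26, 4.58, 7.80, 2.07 and 11.8 CPM in rats 82, 84, 86, 91 and 94. Ranked from low to high, the sham rats stood in the order 82, 91, 84, 86 and 94 in each hemisphere. Sham rat 94 also had the highest summed level of the 6 neutrophil markers with a symbol, at 58.6 CPM ipsilaterally and 53.0 CPM contralaterally, where the other sham samples had 5.91 to 18.2 CPM. Sham rats 84 and 86, with raised Atf3, were at 8.57 and 5.91 CPM of these markers ipsilaterally. The 5 microglia and macrophage markers with a symbol summed to 184.3, 261.7 and 196.8 CPM in the ipsilateral cortex of sham rats 84, 86 and 94, against 121.2 and 117.4 CPM in rats 82 and 91. Contralaterally the sums were 145.5, 191.3 and 192.2 CPM against 140.7 and 122.8 CPM. The first component over ipsilateral libraries divided the sham rats in the same way, at 25.3, 72.9 and 7.46 against -41.1 and -51.1. The part of these in the Atf3 level of sham rats was not tested.

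Sprr1a counts were 6373, 200, 216, 4523, 1071 and 436 in the ipsilateral cortex of PBBI rats 81, 83, 85, 88, 90 and 96. Their levels were 99.8, 2.94, 4.88, 65.0, 15.3 and 5.90 CPM. Sham rats 82, 84, 86, 91 and 94 had 42, 34, 22, 24 and 23 counts, or 0.774, 0.646, 0.588, 0.380 and 0.378 CPM. No sham sample came near the lowest PBBI rat, and the injured rats themselves spanned a 34.0-fold range while the sham rats spanned 2.05-fold. The means were 32.3 ± 40.6 CPM (SD, n = 6) and 0.553 ± 0.172 CPM (SD, n = 5).

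Sprr1a rose by a log2 fold change of 5.87 (SE 1.03, edgeR adjusted p = 0.00792), rank 17 of the 16104 genes by log2 fold change. The exact permutation test gave a difference of 4.66 in mean log2 CPM (two-sided p = 0.00433). Leaving out 1 rat at a time, the log2 fold change stayed between 5.09 and 6.11, and Sprr1a was called in all 11 of these edgeR fits.

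Csrp3 was almost absent from sham cortex. Ipsilateral sham counts were 0, 2, 0, 0 and 0 in rats 82, 84, 86, 91 and 94, and PBBI rats 81, 83, 85, 88, 90 and 96 had 74, 10, 87, 148, 60 and 108. PBBI levels were 1.16, 0.147, 1.97, 2.13, 0.859 and 1.46 CPM. Even rat 83, the lowest, had 5 times the counts of the single sham rat in which the gene was seen. Mean Csrp3 was 1.29 ± 0.734 CPM (SD, n = 6) in PBBI.

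Since every sham library was at or under 3 counts, the size of the Csrp3 difference is a bound. Against the highest level that 3 counts make in an ipsilateral sham library, 0.0802 CPM, the PBBI mean was at least 16.0-fold higher, the lowest rat at least 1.83-fold and the highest at least 26.5-fold. Pooled over libraries, 487 counts stood against 2, a depth-adjusted ratio of 168 with an exact 95% interval of 46.2 to 1388 that covers counting error only. Of the 22 Csrp3 counts 20 were even, and if both reads of a pair were counted, which was not tested, this interval and the one given for the contralateral side are too narrow. edgeR gave a log2 fold change of 7.07 (SE 0.989, adjusted p = 0.00283), rank 4 of 16104 genes, a fitted value that depends on its prior count. The exact permutation test gave two-sided p = 0.00433. When PBBI rat 81, 85, 88, 90 or 96 was left out, Csrp3 fell below the filter on low counts and was not tested. With no filter it was called by edgeR with any of the 11 rats left out, at log2 fold changes of 6.76 to 9.30.

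Per length, Csrp3 was the lowest of the 3 transcripts in sham and in injured cortex. In RPKM, which divides CPM by gene length in kilobases, the ipsilateral PBBI means were 39.8 ± 50.0 for Sprr1a, 12.5 ± 11.1 for Atf3 and 1.00 ± 0.572 for Csrp3 (SD, n = 6). In ipsilateral sham cortex they were 0.682 ± 0.212 for Sprr1a, 2.00 ± 1.78 for Atf3 and 0.00593 ± 0.0133 for Csrp3 (SD, n = 5). Sprr1a exceeded Atf3 in 5 of 6 PBBI rats and in 2 of 5 sham rats, a difference that was not tested. These SDs are spreads between rats. The genes were measured in the same samples, so the SDs do not show whether Sprr1a and Atf3 differ in either group.

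The 6 injured rats did not rank alike for the 3 genes. Rat 83 was lowest for all of them, whereas rat 85 had the highest Atf3 and the second lowest Sprr1a. Sprr1a counts per Atf3 count, a ratio that is compared between rats and not between genes, were 1.84, 0.559, 0.0527, 2.07, 0.683 and 0.499 in rats 81, 83, 85, 88, 90 and 96. Rat 85 lay nearly 10 times below the next lowest injured rat on this ratio while sham rats ranged from 0.0330 to 1.05, a range that also holds rats 83, 90 and 96. Scaled by total counts alone, without the TMM factor, its Atf3 level was 65.3 CPM and still the highest. Its Csrp3 had rank 2 of the 6 injured rats at 1.97 CPM and rank 3 when scaled by total counts, at 1.39 CPM.

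**Figure D2:**
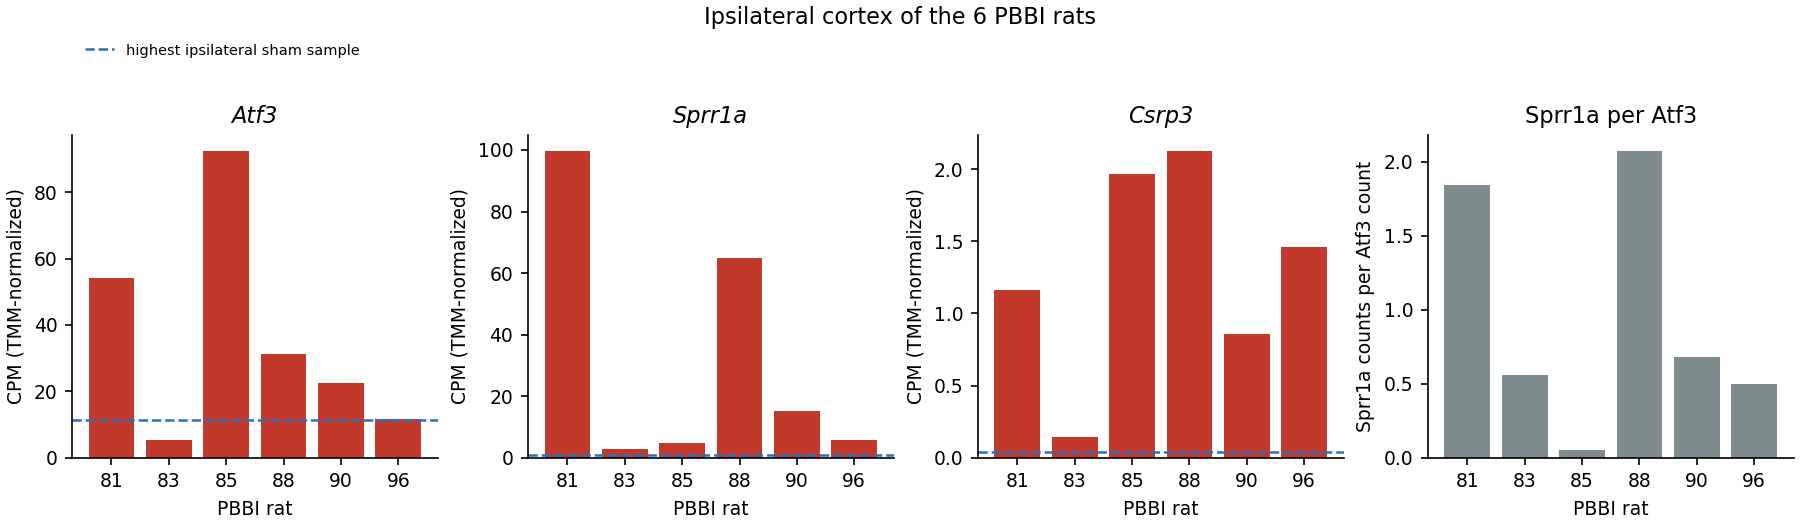
CPM of Atf3, Sprr1a and Csrp3, and Sprr1a counts per Atf3 count, in the ipsilateral cortex of the 6 PBBI rats, 1 bar for each rat. The dashed line marks the highest ipsilateral sham sample, which rat 83 does not reach for Atf3, and rat 85 combines the tallest Atf3 bar at 92.5 CPM with a ratio of 0.0527.

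Across the 6 injured rats, log2 CPM of Atf3 and Sprr1a gave Pearson's r = 0.473 (exact permutation p = 0.338, adjusted 0.385 over 3 pairs) and Spearman's rho = 0.429 (exact permutation p = 0.419, adjusted 0.564). For Atf3 and Csrp3, r was 0.758 (exact permutation p = 0.0681, adjusted 0.2043) and rho 0.6 (exact permutation p = 0.242, adjusted 0.564). Sprr1a and Csrp3 had r = 0.467 (exact permutation p = 0.385, adjusted 0.385) and rho = 0.314 (exact permutation p = 0.564, adjusted 0.564). None of the pairs passed. Without rat 85, r was 0.966 for Atf3 and Sprr1a, 0.738 for Atf3 and Csrp3 and 0.681 for Sprr1a and Csrp3. Without the 2 rats farthest from the median of the first gene of each pair, r became 0.965, -0.03 and 0.432 respectively.

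On the contralateral side none of the 3 genes was called. Atf3 levels in PBBI rats 81, 83, 85, 88, 90 and 96 were 4.82, 4.05, 3.04, 4.13, 1.67 and 1.08 CPM, all within or below the sham range. The mean was 3.13 ± 1.49 CPM (SD, n = 6) against 5.50 ± 4.33 CPM (SD, n = 5) in sham, a log2 difference of -0.82 (SE 0.535, edgeR adjusted p = 1). Contralateral Sprr1a in the same order was 1.87, 1.08, 0.363, 0.407, 0.735 and 0.226 CPM, against 0.211 to 0.889 CPM in sham. Rats 81 and 83 lay above every sham rat and the other 4 did not, with a log2 difference of 0.63 (SE 0.537, edgeR adjusted p = 1).

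Csrp3 in the contralateral cortex gave 14, 4, 0, 4, 4 and 2 counts in PBBI rats 81, 83, 85, 88, 90 and 96 and 0, 2, 2, 0 and 3 in sham rats 82, 84, 86, 91 and 94. It was below the filter on low counts in this comparison. None of the 3 genes had all 6 PBBI rats above every contralateral sham rat, as 0.0943% of genes did. The pooled counts, 28 against 7, gave a ratio of 3.10 with an exact 95% interval of 1.32 to 8.40 for counting error only, and 14 of the 28 PBBI counts came from rat 81. Over rats, exact permutation tests gave two-sided p = 0.42 for Atf3, 0.5 for Sprr1a and 0.195 for Csrp3. edgeR called 0 of 15907 genes on this side (0%), with 366 at an unadjusted p under 0.05, while DESeq2 called 3 and voom 1.

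Within each injured rat, all 3 transcripts were higher on the injured side. The ratio of ipsilateral to contralateral CPM for Atf3 was 11.2, 1.30, 30.4, 7.59, 13.4 and 11.0 in rats 81, 83, 85, 88, 90 and 96. For Sprr1a it was 53.3, 2.73, 13.4, 159.7, 20.9 and 26.1. For Csrp3 it was 5.08, 1.98, 35.3 and 12.6 in rats 81, 83, 88 and 90, at least 37.9 in rat 85, where the contralateral count was 0, and rat 96 had 108 counts against 2. Rat 83 had the smallest ratio for each gene, and its Atf3 barely differed between sides.

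**Figure D3:**
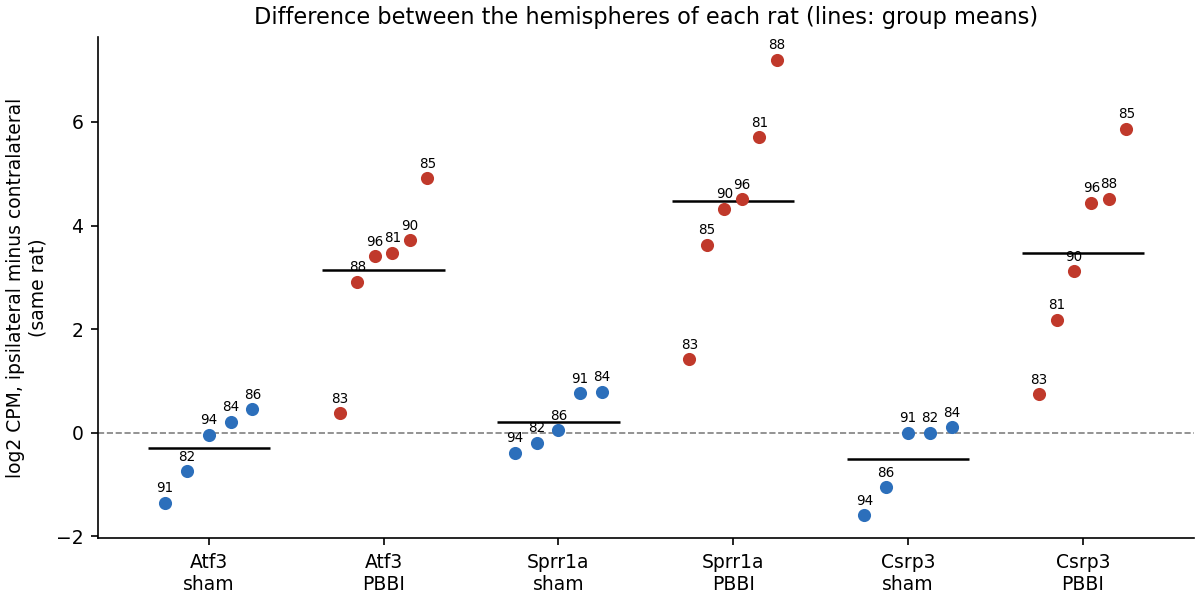
Difference in log2 CPM (prior count 2) between the ipsilateral and contralateral cortex of the same rat for Atf3, Sprr1a and Csrp3, with 1 point for each rat and lines at the group means. All 6 PBBI rats are above 0 for each gene, and the sham rats scatter around 0.

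The edgeR fit over the 12 PBBI samples gave ipsilateral minus contralateral log2 differences of 3.56 for Atf3 (SE 0.647, adjusted p = 0.0153), 5.36 for Sprr1a (SE 0.983, adjusted p = 0.0155) and 4.02 for Csrp3 (SE 0.749, adjusted p = 0.016). All 3 genes were called, where 3.56% of 15973 genes were called and 2.97% as higher. With rat as a block the differences were 3.23 for Atf3 (SE 0.548, edgeR adjusted p = 0.0152), 4.61 for Sprr1a (SE 0.733, edgeR adjusted p = 0.0129) and 3.96 for Csrp3 (SE 0.793, edgeR adjusted p = 0.0222). In that blocked fit the shares of genes called and called as higher were 10.3% and 6.68%. In fits without the block, none of the 3 passed without rat 88, 90 or 96, at edgeR adjusted p of 0.0717 to 0.0942. All 3 were called without rat 83 or 85, and Atf3 and Sprr1a without rat 81, where Csrp3 fell below the filter. Over all genes, the fits without rat 88, 90 and 96 called only 1 of 15971, 42 of 16010 and 6 of 15959. Those without rat 83, 85 and 81 called 728 of 16058, 1149 of 16021 and 246 of 15968. The exact sign-flip permutation test gave two-sided p = 0.0312 for each gene, the smallest that 6 rats allow, with the injured side higher in 6 of 6 rats. In sham rats the sides differed in log2 by 0.08 for Atf3 (SE 0.798) and 0.13 for Sprr1a (SE 0.402), both at edgeR adjusted p = 1. With rat as a block the sham differences were -0.24 (SE 0.262) and 0.21 (SE 0.314), and neither was called. Csrp3 was too low to be tested there. In that comparison edgeR called 0 of 15747 genes (0%), with 47 at an unadjusted p under 0.05, and DESeq2 called 0. Exact sign-flip permutation gave p = 0.438, 0.438 and 0.5 for Atf3, Sprr1a and Csrp3 in sham, where 5 rats cannot give less than 0.0625.

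The injury effect itself, PBBI minus sham, was compared between hemispheres as an interaction over all 22 samples. It was larger ipsilaterally for Sprr1a, by 5.24 on the log2 scale (SE 1.10, edgeR adjusted p = 0.0424). For Atf3 the difference was 3.45 (SE 1.06, edgeR adjusted p = 0.167) and for Csrp3 5.56 (SE 1.51, edgeR adjusted p = 0.121), so that 1 of the 3 genes was called where 0.326% of 16587 genes were, and 0.307% with the larger effect ipsilaterally. With rat as a block, which takes out differences between rats that both hemispheres share, Atf3 passed as well at 3.48 (SE 0.660, edgeR adjusted p = 0.0162). Blocked Sprr1a was 4.40 (edgeR adjusted p = 0.0177) and blocked Csrp3 5.52 (edgeR adjusted p = 0.117), and in that fit 4.27% of genes were called, 2.95% with the larger effect ipsilaterally. In the fit without the block, Sprr1a lost the call when any of 8 of the 11 rats was left out (sham 82, 84, 86, 91 or 94, PBBI 88, 90 or 96), with adjusted p of up to 0.156. Those 8 fits called only 0 to 2 of the 16456 to 16733 genes tested. Without PBBI rat 81, 83 or 85, where Sprr1a was called, 98, 255 and 58 genes were called.

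**Figure D4:**
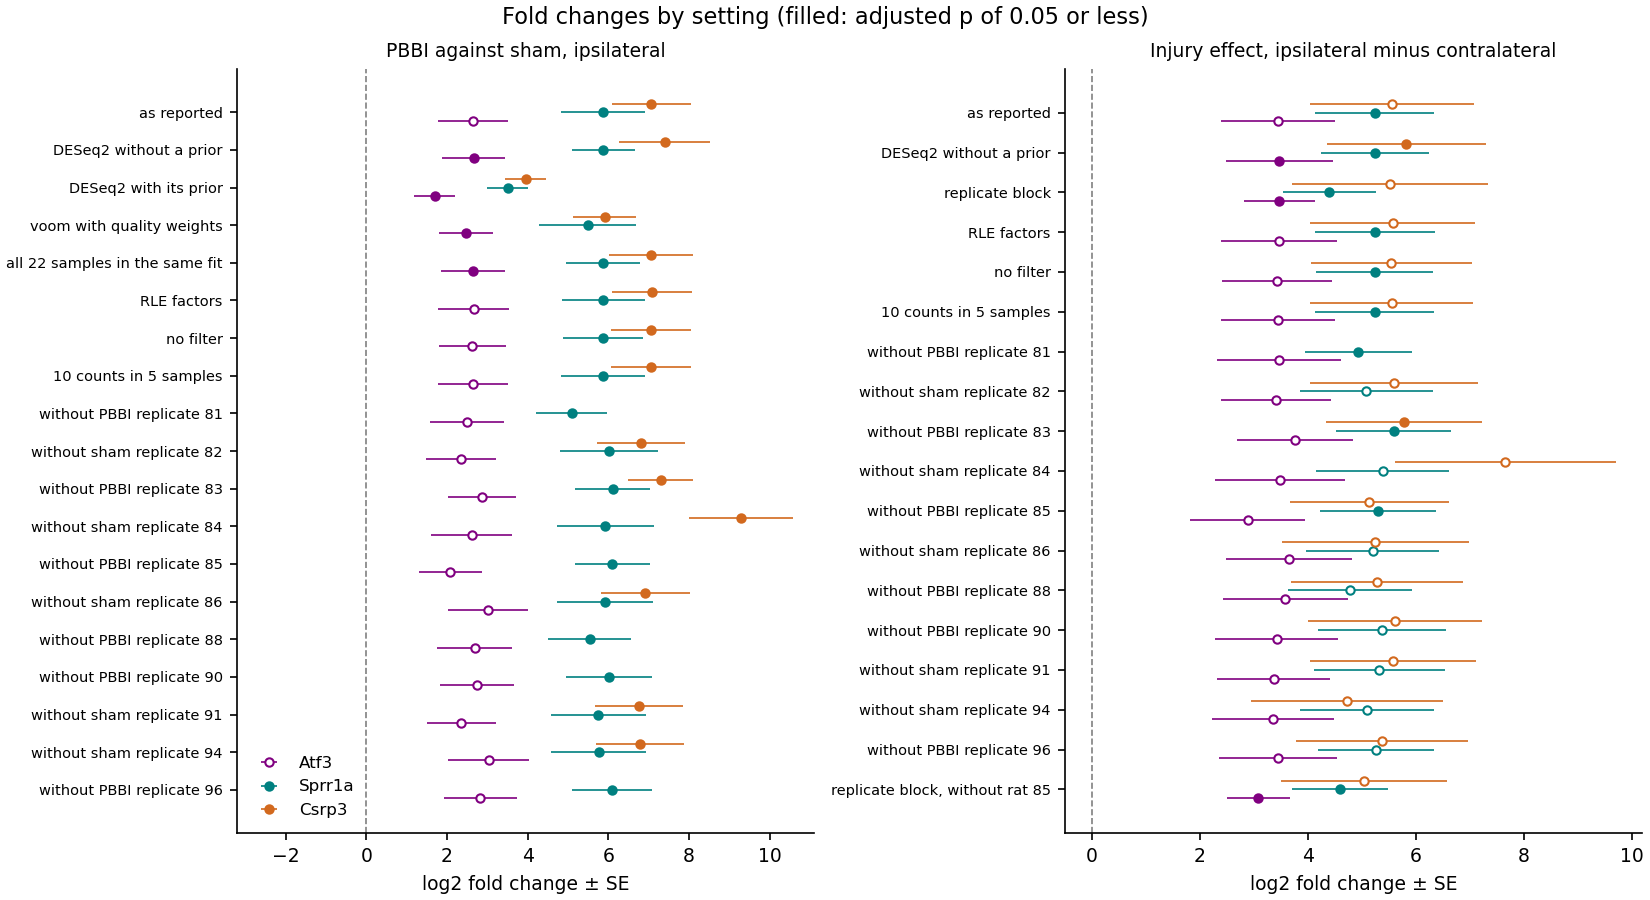
Log2 fold change with SE of Atf3, Sprr1a and Csrp3 for PBBI against sham ipsilaterally and for the injury effect of the ipsilateral minus the contralateral side, under each setting of the fit. Filled points have an adjusted p of 0.05 or less; ipsilateral Sprr1a is filled in every setting and Atf3 in 4, and Csrp3 has no point where it fell below the filter.

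Other genes of the regeneration response that could be named mostly stood higher in the injured cortex. Of 67 genes listed for it, 32 could be given a symbol and were tested, of which 24 rose and 1 fell by edgeR, with a median log2 fold change of 3.21 against -0.02 over all genes tested. Symbols came mostly with genes that were called on these same samples in the original work, and listed genes without a symbol could not be counted. The counts and medians, here and for each list below, are therefore not independent evidence of direction or size. The median and shares over all genes were not selected in this way. On the contralateral side Reg3a was not tested, and edgeR called none of the other listed genes with a symbol, as it called 0 of all 15907 genes.

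Of 14 transcription factor genes and regulators listed, 8 had a symbol and 5 of these rose, with a median log2 fold change of 2.13. Socs3, a feedback inhibitor of cytokine signalling, went from 0.657 ± 0.320 to 26.5 ± 16.1 CPM, a log2 fold change of 5.32 (SE 0.554, edgeR adjusted p = 0.00102). Myc rose by 2.84 (SE 0.455, edgeR adjusted p = 0.00558). The bZIP factor gene Cebpb rose by 2.18 (SE 0.490, edgeR adjusted p = 0.0259), and the stress gene Gadd45a by 2.17 (SE 0.355, edgeR adjusted p = 0.00575). Without rat 85 all 8 were called, in a fit that called 2186 of 15978 genes, against 753 of 16104 with that rat.

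Of the bZIP genes whose products can pair with or act beside ATF3, 20 were listed and 8 had a symbol, and 4 of these 8 rose, with a median of 2.41. Without rat 85, 6 of the 8 were called, where 2186 of all 15978 genes tested were. Fosl1, which encodes an AP-1 subunit, had the largest difference at 5.11 (SE 0.838, edgeR adjusted p = 0.00575), from 0.263 ± 0.193 to 9.08 ± 7.03 CPM. Maff rose by 3.22 (SE 0.578, edgeR adjusted p = 0.00856) and Batf3 by 2.65 (SE 0.664, edgeR adjusted p = 0.0402). Batf had 2.55 (SE 0.784, edgeR adjusted p = 0.0924). Rat 85 had the highest Batf3 and Batf of the 6 injured rats, at 5.62 and 3.52 CPM, as it did for Atf3, and this held when scaled by total counts.

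Of 21 cytoskeletal, adhesion and growth cone genes listed, 7 had a symbol and all 7 of these rose, with a median of 3.39. Sdc1, a cell-surface proteoglycan gene, rose by 5.27 (SE 0.834, edgeR adjusted p = 0.00551) and the tubulin gene Tubb6 by 4.44 (SE 0.572, edgeR adjusted p = 0.00195). Cd44, which encodes the hyaluronan receptor, rose by 3.59 (SE 0.481, edgeR adjusted p = 0.00243), and the TWEAK receptor gene Tnfrsf12a by 3.39 (SE 0.523, edgeR adjusted p = 0.0048).

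Of 19 neuropeptide and cytokine genes listed, 7 had a symbol, of which 5 rose and 1 fell, with a median of 3.56. The cytokine gene Il11 rose by 6.31 (SE 0.889, edgeR adjusted p = 0.00286), from 0.205 ± 0.0984 to 16.2 ± 13.8 CPM. Lif, which encodes a cytokine that induces neuropeptides in injured neurons, rose by 5.13 (SE 1.08, edgeR adjusted p = 0.0191), though rat 85 had 0.0452 CPM, below every sham rat. Osmr, the oncostatin M receptor gene, rose by 3.68 (SE 0.645, edgeR adjusted p = 0.00792) and its ligand gene Osm by 3.56 (SE 0.875, edgeR adjusted p = 0.0375). The 1 that fell, named after its value was seen, was the cholecystokinin receptor gene Cckbr at -1.47 (SE 0.320, edgeR adjusted p = 0.0217).

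Of 13 stress and protease genes listed, 10 had a symbol and 7 of these rose, with a median of 3.41. The small heat shock protein gene Hspb1 rose by 6.77 (SE 0.674, edgeR adjusted p = 0.00094), from 2.80 ± 0.604 to 306.4 ± 210.8 CPM. Timp1, a metalloproteinase inhibitor gene, rose by 5.37 (SE 0.595, edgeR adjusted p = 0.00132), and the heme oxygenase gene Hmox1 by 5.07 (SE 0.628, edgeR adjusted p = 0.00164). Reg3a, a lectin gene induced by injury, rose by 4.20 (SE 0.838, edgeR adjusted p = 0.0153) at a level of only 0.812 ± 0.583 CPM.

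**Figure D5:**
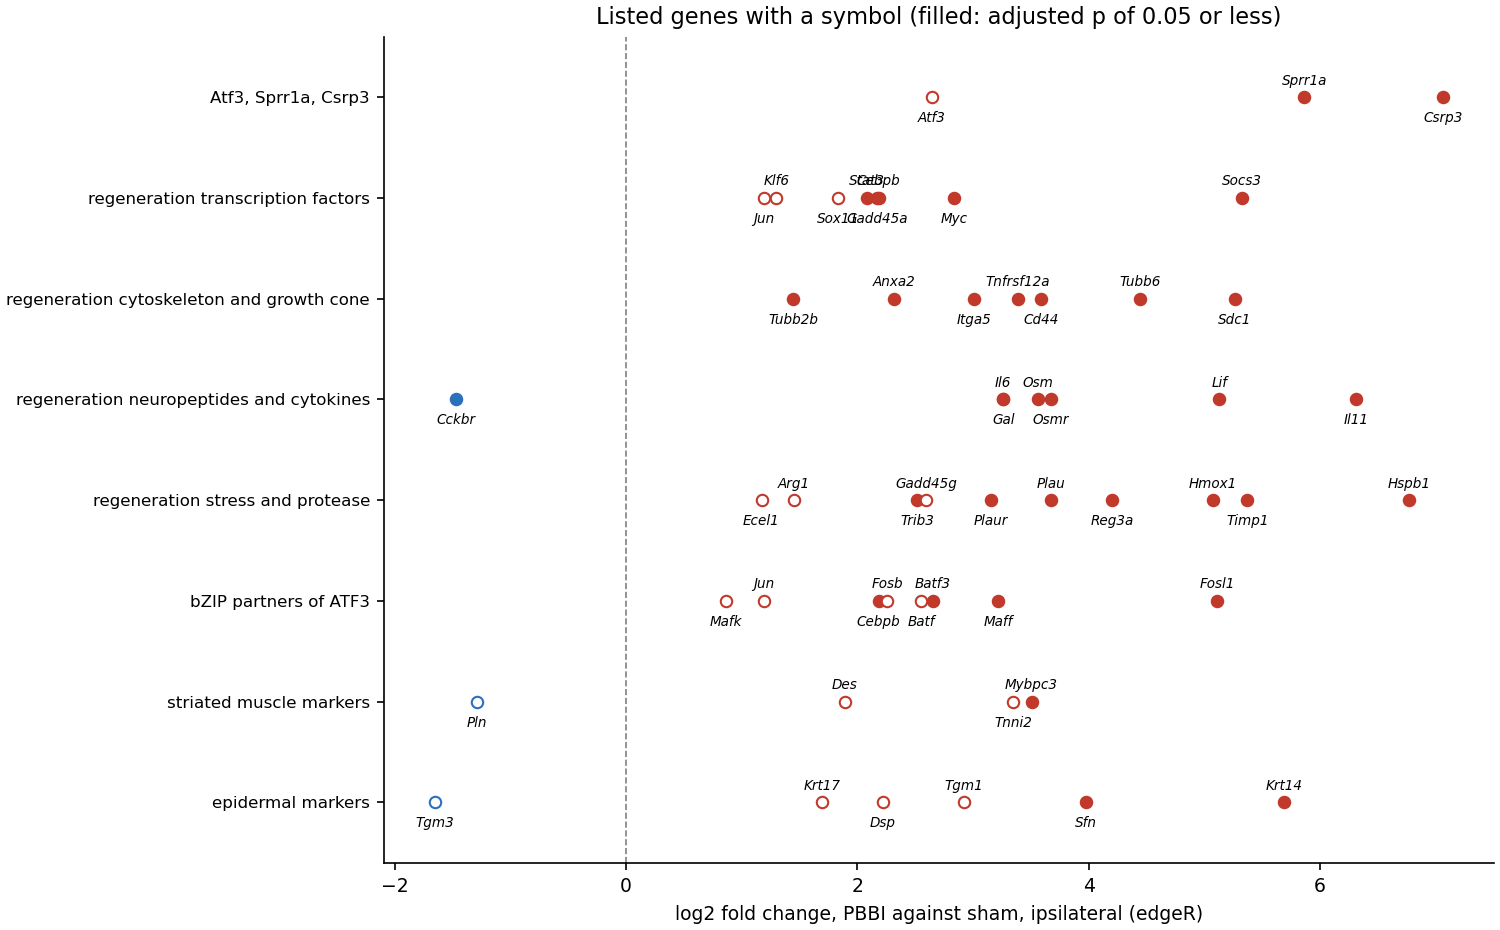
Log2 fold change of PBBI against sham in the ipsilateral cortex (edgeR) for Atf3, Sprr1a and Csrp3 and for each listed gene with a symbol, 1 row for each list. Filled points have an adjusted p of 0.05 or less. Csrp3 at 7.07 lies farthest to the right, a fitted value against ipsilateral sham counts of only 0 to 2, and Atf3 at 2.64 is open.

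Rats 83 and 85 stood apart in these lists too. Over the 32 regeneration genes, rat 83 had the lowest of the 6 injured levels for 22 and rat 81 had the highest for 14. Rat 85 had the highest level for 2, Cebpb and Gadd45g, in both of which it ranked second when scaled by total counts, and the lowest for 8, among them Lif, Sdc1, Osmr and Hmox1. It was above every sham rat for 25 of the 32, rat 83 for 22 and the other 4 for 29 to 31.

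Markers of the tissues where CSRP3 and SPRR1A are best known were read beside them. Of 31 striated muscle markers, 4 had a symbol, and their summed ipsilateral level ran from 6.90 to 54.1 CPM in PBBI and from 4.26 to 13.5 CPM in sham. The highest sum was in rat 85, with 1.97 CPM of Csrp3, where Des, the muscle intermediate filament gene, made up 48.6 CPM. Rats 81, 83, 88, 90 and 96 had sums of 21.1, 7.32, 14.7, 10.1 and 6.90 CPM, with 1.16, 0.147, 2.13, 0.859 and 1.46 CPM of Csrp3. Mybpc3, a sarcomere gene, rose by 3.51 (SE 0.594, edgeR adjusted p = 0.00661), from 0.114 ± 0.0824 to 1.33 ± 0.751 CPM. Tnni2, a fast-muscle troponin gene, had 3.35 (SE 0.887, edgeR adjusted p = 0.0514), Des 1.89 (SE 0.701, edgeR adjusted p = 0.171) and Pln -1.29 (SE 0.455, edgeR adjusted p = 0.146), which fell without rat 85 at -1.47 (edgeR adjusted p = 0.0447). Tnni2 was highest in rat 85, at 2.82 CPM, and without that rat it was below the filter. With rat 85 left out and no filter, Csrp3 was at 6.93 (edgeR adjusted p = 0.000393), and the part of muscle RNA in its level was not tested.

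Of 22 epidermal markers, 6 had a symbol, with summed ipsilateral levels of 1.19 to 14.7 CPM in PBBI and 1.12 to 1.87 CPM in sham. The sum was highest in rat 81 and lowest in rat 83, which also had the highest and lowest Sprr1a. Between them the order differed. Rats 85, 88, 90 and 96 had sums of 2.82, 8.79, 9.62 and 9.05 CPM, with 4.88, 65.0, 15.3 and 5.90 CPM of Sprr1a. The keratin gene Krt14 rose by 5.69 (SE 1.20, edgeR adjusted p = 0.0187). No ipsilateral sham sample held more than 2 Krt14 counts, so 5.69 is a fitted value and not a measured size, as for Csrp3. Sfn, which encodes a 14-3-3 protein of epithelial cells, rose by 3.97 (SE 0.931, edgeR adjusted p = 0.0312). The other 4 did not pass. The transglutaminase gene Tgm1 had 2.92 (SE 0.836, edgeR adjusted p = 0.0725) the desmosome gene Dsp 2.22 (SE 0.649, edgeR adjusted p = 0.0778), Krt17 1.70 (edgeR adjusted p = 0.211) and Tgm3, in the other direction, -1.65 (edgeR adjusted p = 0.155). Without rat 85, in the fit that called 2186 of 15978 genes, Tgm1 (edgeR adjusted p = 0.027) and Dsp (0.0104) were called too, and Krt14 was below the filter. Krt14 reached 0.883 ± 0.675 CPM in PBBI and was at 0 in 1 of the 6 PBBI rats and 2 of the 5 sham rats. The part of epidermal RNA in the Sprr1a level was not tested.

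Of the immune and glial markers tested, some were called. The 6 neutrophil markers with a symbol, of 8 listed, summed to 24.9 to 211.8 CPM in ipsilateral PBBI cortex and 5.91 to 58.6 CPM in sham. Rat 83 had the lowest sum, as it had of Atf3, and rat 85 had the highest after TMM normalization, whereas scaled by total counts it had 149.6 CPM and rat 81 had 211.9 CPM. Of the 4 tested, Lcn2 rose by 3.79 (SE 0.808, edgeR adjusted p = 0.02). S100a8 had 3.07 (edgeR adjusted p = 0.143), S100a9 2.34 (edgeR adjusted p = 0.269) and Csf3r 1.87 (edgeR adjusted p = 0.0677). Without rat 85, in the fit that called 2186 of 15978 genes, Csf3r was called as well, at 2.09 (edgeR adjusted p = 0.00502). The 2 that were too low to be tested were Elane, at 0 in all 5 ipsilateral sham samples and in 1 of the 6 PBBI samples with at most 31 counts, and Cxcr2, at 0 in 2 of the 5 sham samples and with at most 239 counts in PBBI.

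Among microglia and macrophage markers, of which 5 of 11 had a symbol and 4 were tested, Cd14 rose by 5.17 (SE 0.708, edgeR adjusted p = 0.00274) and Itgam by 2.58 (SE 0.457, edgeR adjusted p = 0.00833). Lyz2 had 1.62 (edgeR adjusted p = 0.0677) and Tmem119 -0.92 (edgeR adjusted p = 0.0799). Without rat 85, in the fit that called 2186 of 15978 genes, both were called, at 1.61 (edgeR adjusted p = 0.0382) and -0.95 (edgeR adjusted p = 0.0391). Their summed level was 203.6 to 937.6 CPM in PBBI and 117.4 to 261.7 CPM in sham. The astrocyte gene Gfap rose by 2.99 (SE 0.449, edgeR adjusted p = 0.00407) and Aldh1l1 fell by 0.96 (SE 0.244, edgeR adjusted p = 0.0418), and the sum of these 2 of 8 markers was 1820 to 6838 CPM in PBBI and 351.3 to 907.9 CPM in sham. The pericyte gene Rgs5, 1 of 8 vascular markers, had -0.79 (edgeR adjusted p = 0.316). None of the 11 neuron or 8 oligodendrocyte markers had a symbol here, so the neuronal share of these samples was not measured, and the part of infiltrating cells in the level of Atf3 was not tested.

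Among genes with a symbol, those whose deviations from their group means ran most like each member were found over the 22 samples, which share libraries and depth. For Atf3 they were Arpc1b (r = 0.866), an actin-nucleating complex subunit gene, Gadd45g (0.862), Slfn2 (0.859), Cebpb (0.840) and Ripk3 (0.834), a gene of necroptosis. For Sprr1a they were Rnf19b (0.888), the calpain gene Capn2 (0.842), Pmepa1 (0.797), the chemokine gene Ccl7 (0.790) and Tnip2 (0.783). For Csrp3 they were Tmbim1 (0.821), Sh3glb1 (0.811), Fgl2 (0.798), the sphingosine-phosphate receptor gene S1pr2 (0.777) and Mdfic (0.754). Ranked with genes that have no symbol too, 12344 in all, the 5 stood at 5, 6, 8, 12 and 13 for Atf3. Those of Sprr1a stood at 1, 2, 6, 7 and 9, and those of Csrp3 at 1 to 5 of 12345. The 3 named sets shared no gene. Without rat 85 only 2, 1 and 1 of the 5 stayed among the closest 5 with a symbol for Atf3, Sprr1a and Csrp3. Among themselves, the members' deviations gave r = 0.285 for Atf3 and Sprr1a, 0.549 for Atf3 and Csrp3 and 0.499 for Sprr1a and Csrp3, or 0.447, 0.567 and 0.629 without rat 85.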

How the data were processed

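Ribosomal-depleted stranded RNA was sequenced in 22 samples as paired reads of 50 bases, and per the labels the authors aligned it with STAR 2.4.2a to Rnor_6.0 and deposited raw featureCounts (1.4.3-p1) counts per Ensembl gene. How reads shared by near-identical genes were counted is not given in the sources used here. Weekly surgery groups are not in the labels, so they could not enter a fit. Symbols were paired with identifiers through the study's supplementary tables, which name 1818 genes. The members and lists were chosen with earlier results of these data known. From each list the 4 tested genes with the largest absolute ipsilateral log2 fold change are named, and for each member the 5 most similar genes with a symbol and a mean log2 CPM of at least 1.

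edgeR 4.0.16 (TMM, filterByExpr, quasi-likelihood test, Benjamini-Hochberg threshold 0.05 over all genes tested) in R 4.3.3 was fitted on each side separately, within each treatment, and as an interaction. Log2 CPM used a prior count of 2. DESeq2 1.42.0, limma 3.58.1 voom, other filters and factors, a rat block and leaving out each rat were the alternatives, and scripts were tested on simulated data. Both samples of a number come from the same rat, and their deviations correlated at 0.246 to 0.758 in the 11 rats, so numbers pair samples. Intervals and floors of 3 counts cover counting error only: 20 of 22 Atf3 and Csrp3 counts are even, as are 60.8% to 69.6% of all counts from 1 to 19. Totals were 42085341 to 63412426 counts per sample. Promoters are from a RefSeq table in GRCr8, in which 1 of the 3 genes was matched.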

Additional observations from a re-analysis of the deposited data

Results flagged for a closer look

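Among 12 combinations of member and group, 2 held a sample far from the others, where chance gives about 1 in 20. Csrp3 in ipsilateral sham cortex was at 0.0380 CPM in rat 84, from 2 counts, with the other 4 rats at 0. With those 4 at 0, a count of any size in rat 84 would stand far from them. The rate of 1 in 20 does not hold for such counts. Csrp3 in contralateral PBBI cortex was at 0.228 CPM in rat 81, from 14 counts, with the other 5 rats at 0 to 4 counts. The injury effect on Sprr1a differed between hemispheres, by 5.24 on the log2 scale (edgeR adjusted p = 0.0424 over 16587 genes, with the injured side higher in 6 of 6 PBBI rats).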

How the results depend on the processing

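Ipsilaterally, Sprr1a kept its direction and call under every alternative tried, and Csrp3 under every one in which it passed the filter (leaving out a rat, 6.76 to 9.28). Atf3 was called by DESeq2 without a prior (2.66), DESeq2 with its prior (1.70), voom (2.48) and the fit of all 22 samples (2.64), and its log2 fold change was 2.08 to 3.03 with a rat left out (edgeR adjusted p of 0.0626 to 0.242). The interaction was called for Atf3 by DESeq2 (3.47), with the replicate block (3.48) and with the block without rat 85 (3.09), an alternative chosen after seeing the data. It was called for Csrp3 by DESeq2 (5.83) and without rat 83 (5.78). With a rat left out it ranged from 4.78 to 5.59 for Sprr1a and from 4.73 to 7.66 for Csrp3. Within PBBI the ranges were 3.01 to 3.86 for Atf3, 4.91 to 5.71 for Sprr1a and 3.60 to 4.24 for Csrp3, and the replicate block changed no call there. Within sham the sign turned for Atf3 with the block (-0.24) and without rat 86 (-0.10), range -0.10 to 0.18, and for Sprr1a without rat 84 (-0.036), range -0.036 to 0.28. The cause of these changes was not tested. Genes called ipsilaterally numbered 753, 1639 and 1628 by DESeq2, 5014 by voom, 1655 with all samples and 316 to 2186 with a rat left out, the highest without rat 85. Interaction calls numbered 54, 353 by DESeq2, 708 with the block, 1358 with the block without rat 85 and 0 to 255 with a rat left out. Calls within PBBI numbered 568, 1535 by DESeq2, 1646 with the block, 3356 with the block without rat 85 and 1 to 1149 with a rat left out. Depth limits Csrp3 most, at 0 to 3 counts in each sham library.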
